A study of Mus musculus with 14 samples.

Results

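The Toll-like receptors are germline-encoded sensors of microbial molecules, and 10 of their genes were followed here across mouse livers: Tlr1, Tlr2, Tlr3, Tlr4, Tlr5, Tlr6, Tlr7, Tlr8, Tlr9 and Tlr13. They were chosen by gene symbol, with no cut on measured values but with earlier results of these data known. Each symbol matched 1 Ensembl gene among the 51912 genes counted. Each receptor passed the filter on low counts, which kept 14638 genes for testing. The 14 untreated mice were 20 weeks old, and each gave 1 library, made from total RNA of a sample of its left lobe. The 4 controls were littermates with floxed Tet2 and no cre (Tet2fl/fl cre-), described as healthy and also labelled wild type (WT). The other 10 mice were Tet2fl/fl vav cre+, in which the Vav promoter drives cre in blood-forming cells and their descendants, so that hepatocytes are expected to keep the gene. Of these, 5 were asymptomatic and 5 had spontaneously developed autoimmune hepatitis (AIH). The floxed Tet2 allele was thus shared by every group, no group carried cre without floxed Tet2, and AIH was compared with asymptomatic liver within a single genotype. Animals are numbered within their group in accession order, which pairs no animals.

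Toll-like receptors act as dimers. Those at the cell surface (Tlr1, Tlr2, Tlr4, Tlr5 and Tlr6) bind lipids and proteins of bacteria, and those in endosomes (Tlr3, Tlr7, Tlr8, Tlr9 and Tlr13) bind nucleic acids. Most signal through the adaptor Myd88 to NF-kB and interferon regulatory factors, while Tlr3 uses Ticam1 and Tlr4 uses both adaptors. In liver, which receives blood from the gut, Kupffer cells, infiltrating leukocytes, endothelial cells and hepatocytes carry different receptors of the family.

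Reads assigned to genes numbered between 15968380 and 18915729 per library. The summed level of 8 hepatocyte markers was 95793 to 178166 CPM (CPM: read counts relative to library size, scaled by edgeR's TMM factors), as liver tissue should show. Tet2 itself was measured at 8.53 to 11.98 CPM in controls, 4.77 to 9.23 in asymptomatic livers and 7.34 to 15.4 in AIH livers. Whole-liver counts per gene do not resolve the deleted exons, so this does not check the genotype labels. Xist and Y-linked transcripts put 2 females and 2 males in the control group, 5 males in the asymptomatic group, and 4 females and 1 male (AIH 4) in the AIH group. Unaligned reads made up 4.17% to 4.89% of control libraries, 4.93% to 9.27% of asymptomatic libraries and 3.23% to 6.54% of AIH libraries. The AIH libraries carry the numbers 11 to 15 and the rest carry lower ones, so library order and AIH cannot be told apart. Nothing beyond the labels says how animals were housed or littered, and the p-values measure the spread between these animals.

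In the genome (GRCm38) the 10 genes lie on 7 chromosomes. Tlr1 (chr5:64924679-64933563) and Tlr6 (chr5:64952031-64960097) are neighbours on the minus strand, 18.5 kb apart with no annotated gene between them. Tlr8 (chrX:167242696-167264329) and Tlr7 (chrX:167304929-167330558) are likewise neighbours, 40.6 kb apart, and Tlr13 (chrX:106143204-106160493) lies elsewhere on the X chromosome. Tlr2 is at chr3:83836272-83841767, Tlr4 at chr4:66827584-66930284, Tlr5 at chr1:182954788-182976044, Tlr3 at chr8:45395665-45411080 and Tlr9 at chr9:106222598-106226883. Of the 50-base stretches in the exons of Tlr1, 13.6% also occur in Tlr6, while no other pair of these genes shares any, so counts of Tlr1 and Tlr6 may exclude or exchange some reads. An exon of Tlr3 overlaps the antisense gene Gm45542, and without a stated strand setting reads of the pair cannot be told apart.

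Promoter windows (RefSeq, GRCm38.p6, from 250 bases before to 50 bases after each start) were matched for 8 of the 10 genes, in 10 windows. Tlr4 and Tlr7 had no match. The letters GAGGAA, the core read by the myeloid factor PU.1 and related ETS factors, were searched on both strands and were found in the windows of 4 receptors, Tlr1, Tlr8, Tlr9 and Tlr13. Of all 32851 windows of that length, 28.3% held them. Tlr6, also higher in AIH, held them in none of its windows. The stretches are shown because these 4 genes were among those higher in AIH, with the letters in capitals (for Tlr8 they lie on the other strand, as TTCCTC).
Tlr1, chr5:64933559-64933608, minus strand: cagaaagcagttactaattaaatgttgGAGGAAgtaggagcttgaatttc
Tlr9, chr9:106222459-106222518, plus strand: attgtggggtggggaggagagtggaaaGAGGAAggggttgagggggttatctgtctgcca
Tlr13, chrX:106143165-106143224, plus strand: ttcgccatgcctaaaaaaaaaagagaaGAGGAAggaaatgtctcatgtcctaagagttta
Tlr8, chrX:167264374-167264433, minus strand: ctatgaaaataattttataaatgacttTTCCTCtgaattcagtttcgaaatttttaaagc
A match to the NF-kB motif was found for Tlr2 and Tlr3, and in 4.51% of all windows. The Tlr2 stretch is shown for contrast, since Tlr2 was not called in any comparison, with its overlapping matches in capitals.
Tlr2, chr3:83841747-83841805, minus strand: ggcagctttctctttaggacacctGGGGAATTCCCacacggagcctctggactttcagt
These matches describe letters in a window and no binding was measured.

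AIH livers held more transcript of 7 of the 10 receptors than control livers and less of Tlr5, by edgeR's quasi-likelihood test with Benjamini-Hochberg adjustment over all 14638 genes. The higher genes were Tlr1, Tlr4, Tlr6, Tlr7, Tlr8, Tlr9 and Tlr13, and Tlr2 and Tlr3 did not pass the threshold of 0.05. Across all genes 21.7% were called in this comparison, 15.6% as higher and 6.08% as lower. The receptors' median log2 fold change was 1.41, against -0.01 over all genes tested. In 4 of the 10, every AIH library exceeded every control library, as it did for 13.2% of all genes. In bulk liver, more cells of a type and more RNA per cell cannot be told apart.

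**Figure D1:**
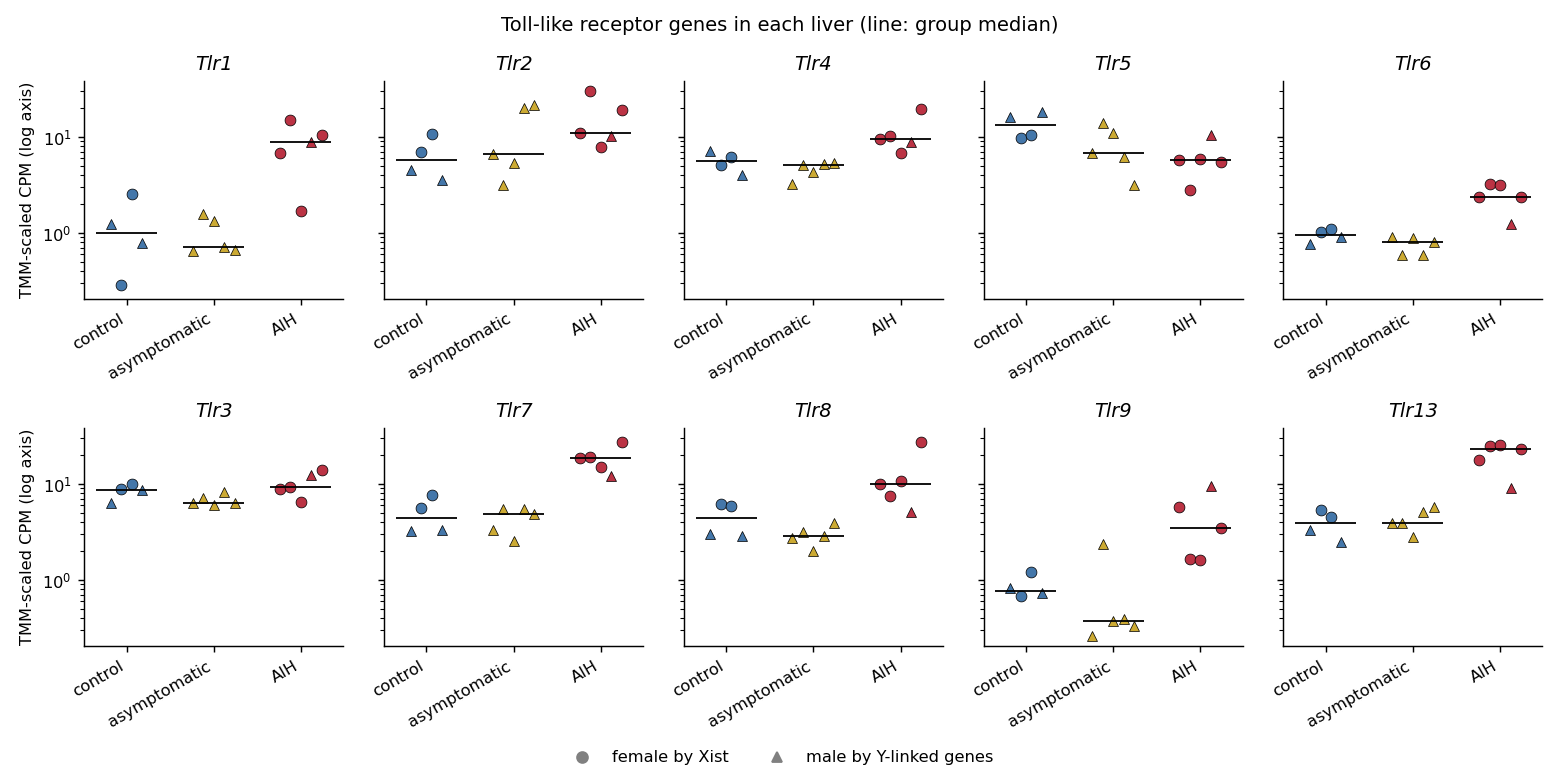
TMM-scaled CPM of each receptor gene in every liver on a log axis, by group, with circles for libraries read as female, triangles for those read as male, and a line at the group median. The AIH points of Tlr6, Tlr7, Tlr9 and Tlr13 all sit above the control points, Tlr3 overlaps in every group, and Tlr5 is mostly lower in AIH.

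Among the surface receptors, Tlr1, which pairs with Tlr2 to bind bacterial triacylated lipopeptides, had the steepest rise over controls of the 10. Its level in controls 1 to 4 was 1.23, 0.283, 2.56 and 0.782 CPM, and in asymptomatic livers 1 to 5 it was 0.650, 1.59, 1.32, 0.711 and 0.665 CPM. In AIH livers 1 to 5 it was 6.82, 15.2, 1.69, 8.90 and 10.5 CPM. AIH 3 lay within the control range, and the other 4 AIH livers were above every library without hepatitis. The log2 fold change was 2.82 ± 0.62 (SE) over controls (adjusted p = 0.00486) and 3.11 ± 0.58 over asymptomatic livers (adjusted p = 0.00122).

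Tlr6, the partner of Tlr2 for diacylated lipopeptides, was scarcer, with 9 to 66 reads in a library. It stood at 0.760, 1.02, 1.09 and 0.894 CPM in controls, at 0.910, 0.588, 0.878, 0.582 and 0.798 CPM in asymptomatic livers and at 2.35, 3.21, 3.15, 1.23 and 2.37 CPM in AIH livers. Every AIH library was above every other library, with the male AIH 4 the lowest of the AIH group. Tlr6 gave a log2 fold change of 1.38 ± 0.30 over controls (adjusted p = 0.00487) and 1.71 ± 0.29 over asymptomatic livers (adjusted p = 0.000601). AIH 3, the lowest AIH liver for Tlr1, was among the highest for its neighbour Tlr6.

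Tlr2, the shared partner of both, did not pass in any comparison. Controls measured 4.56, 6.90, 10.7 and 3.52 CPM, and AIH livers 10.9, 30.2, 7.87, 10.3 and 19.1 CPM. The asymptomatic group split widely, at 6.63, 3.18 and 5.40 CPM in animals 1 to 3 and at 20.2 and 21.7 CPM in animals 4 and 5, which were above 4 of the 5 AIH livers. The log2 fold change in AIH was 1.29 ± 0.57 over controls (adjusted p = 0.127) and 0.46 ± 0.52 over asymptomatic livers (adjusted p = 0.537).

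Tlr4, the lipopolysaccharide receptor, rose in AIH. Controls measured 7.19, 5.14, 6.16 and 4.02 CPM, asymptomatic livers 3.25, 5.12, 4.27, 5.23 and 5.32 CPM, and AIH livers 9.60, 10.3, 6.82, 8.78 and 19.6 CPM. AIH 3 fell just under control 1, and AIH 5 was far above the rest of its group. For Tlr4 the log2 fold change was 0.97 ± 0.29 over controls (adjusted p = 0.0269) and 1.25 ± 0.27 over asymptomatic livers (adjusted p = 0.00352). The call over controls was lost without AIH 5 (0.66, adjusted p = 0.0570), control 2 (0.91, adjusted p = 0.0793) or control 4 (0.82, adjusted p = 0.0970).

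Tlr5, the flagellin receptor, was the receptor with a lower level in AIH. It stood at 16.2, 9.78, 10.5 and 18.1 CPM in controls, at 6.76, 13.9, 11.1, 6.14 and 3.13 CPM in asymptomatic livers and at 5.76, 2.77, 5.94, 10.4 and 5.45 CPM in AIH livers. AIH 4 overlapped the controls, and the other 4 AIH livers were below all of them. Its log2 fold change over controls was -1.17 ± 0.40 with an adjusted p of 0.0499, and by p-value it ranked 3174 of the 3174 genes called. The call was lost in 7 of the 9 fits that left out 1 library, all but those without control 2 or AIH 4, at adjusted p up to 0.119, and when scaled by library totals (-1.04, adjusted p = 0.0785). Between asymptomatic and control livers Tlr5 differed by -0.73 ± 0.40 (adjusted p = 0.539) and between AIH and asymptomatic livers by -0.44 ± 0.38 (adjusted p = 0.408), and neither passed.

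Of the endosomal receptors, all but Tlr3 rose over controls. Tlr7, an X-linked sensor of single-stranded RNA, measured 3.27, 5.60, 7.63 and 3.35 CPM in controls, 3.32, 5.53, 2.57, 5.49 and 4.86 CPM in asymptomatic livers and 18.7, 19.3, 15.2, 12.3 and 27.6 CPM in AIH livers. The AIH livers did not overlap either other group. Tlr7 rose by a log2 fold change of 1.90 ± 0.32 over controls (adjusted p = 0.000872) and 2.09 ± 0.30 over asymptomatic livers (adjusted p = 0.000172).

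Tlr13, an X-linked sensor of bacterial ribosomal RNA that humans lack, stood at 3.33, 5.43, 4.52 and 2.51 CPM in controls, at 3.90, 3.94, 2.82, 5.11 and 5.79 CPM in asymptomatic livers and at 17.6, 25.1, 25.8, 9.01 and 23.4 CPM in AIH livers. Every AIH liver was above every other liver, and the male AIH 4 was again the lowest of them. The log2 fold change was 2.35 ± 0.33 over controls (adjusted p = 0.000199), which was the smallest adjusted p of the 10 receptors, and 2.23 ± 0.30 over asymptomatic livers (adjusted p = 0.000106).

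Tlr8, the X-linked neighbour of Tlr7, measured 2.98, 6.16, 5.94 and 2.90 CPM in controls, 2.73, 3.18, 2.01, 2.84 and 3.93 CPM in asymptomatic livers and 10.1, 7.58, 10.8, 5.15 and 27.3 CPM in AIH livers. AIH 4 lay within the control range, and AIH 5 stood far above the others. On the log2 scale Tlr8 rose by 1.44 ± 0.43 over controls (adjusted p = 0.0262) and 2.05 ± 0.41 over asymptomatic livers (adjusted p = 0.00187). The call over controls was lost without AIH 5 (0.91, adjusted p = 0.0597), control 1 (1.28, adjusted p = 0.0845) or control 4 (1.26, adjusted p = 0.0855).

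Tlr9, the sensor of unmethylated CpG DNA and abundant in B cells and plasmacytoid dendritic cells, measured 0.818, 0.678, 1.20 and 0.726 CPM in controls. In asymptomatic livers it was 0.260, 2.35, 0.376, 0.388 and 0.333 CPM, and in AIH livers 5.76, 1.65, 1.63, 9.46 and 3.48 CPM. All AIH livers were above all controls, but asymptomatic 2 exceeded AIH 2 and AIH 3. On the log2 scale Tlr9 rose by 2.35 ± 0.69 over controls (adjusted p = 0.0244) and 2.54 ± 0.64 over asymptomatic livers (adjusted p = 0.00876). Leaving out AIH 4 (1.87, adjusted p = 0.0510) or control 1, 2 or 4 (2.22 to 2.30, adjusted p up to 0.0665) ended the call over controls. Over asymptomatic livers the 10 fits without 1 library ranged from 2.06 to 3.67, and all kept the call. The livers highest in Tlr9, AIH 4 and AIH 1, were also highest in the summed level of 8 B cell markers (233 and 171 CPM, against 29.4 to 70.7 in the other AIH livers). The same 2 livers led in 6 plasmacytoid dendritic markers (38.2 and 26.6 CPM, against 5.81 to 6.56). Most of that sum was Spib (13.6 ± 13.9 CPM in AIH, SD, n = 5), which B cells also express, while Siglech stood at 0.98 ± 0.70 CPM and was not called (adjusted p = 0.333). AIH 5, the next highest in Tlr9, was the lowest of its group in both lists. Asymptomatic 2 led its group in both lists. The 9 T and natural killer cell markers ran the same way, so the match was not particular to these 2 lists. Their sum was highest in AIH 1 and AIH 4 (78.9 and 72.2 CPM, against 12.9 to 59.7 in the other AIH livers). It was lowest of that group in AIH 5, and asymptomatic 2 led its own group (6.35 CPM). The part of these cells in the Tlr9 result was not tested.

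Tlr3, the sensor of double-stranded RNA, differed least between AIH and control livers. Controls measured 6.37, 8.82, 9.97 and 8.60 CPM, asymptomatic livers 6.31, 7.18, 6.02, 8.27 and 6.32 CPM, and AIH livers 8.98, 9.23, 6.53, 12.3 and 14.04 CPM. The groups overlapped throughout. The log2 fold change was 0.28 ± 0.22 over controls (adjusted p = 0.401), and 0.58 ± 0.21 over asymptomatic livers, which passed (adjusted p = 0.0452). That call was lost in 8 of the 10 fits without 1 library, all but those without asymptomatic 4 or AIH 3, at adjusted p up to 0.120, and with DESeq2-type size factors in edgeR (adjusted p = 0.0513).

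**Figure D2:**
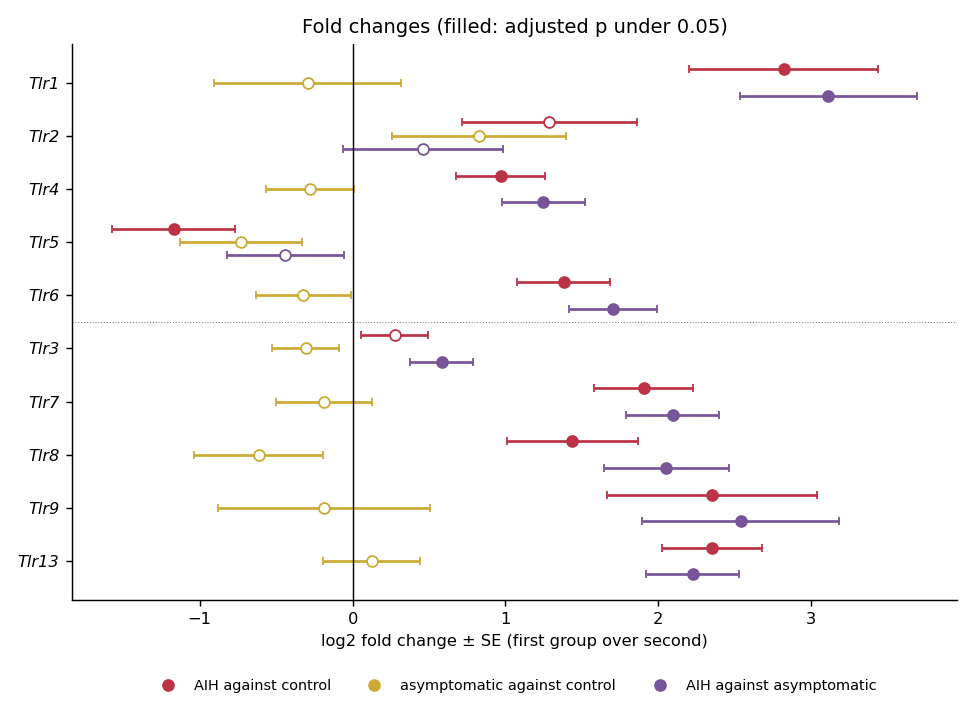
Log2 fold change with its standard error for each receptor in the 3 comparisons, with surface receptors above the dotted line and endosomal receptors below it, and filled points for adjusted p under 0.05. AIH points lie to the right of 0 for every receptor but Tlr5, and all asymptomatic points are open.

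In asymptomatic livers none of the 10 receptors passed against controls, and over all genes 0 of 14638 (0%) did. At an unadjusted p under 0.05 the count was 0 of the 10 receptors and 10.5% of all genes. With sex as a term in the edgeR fit, Tlr5 (-1.13, unadjusted p = 0.0112), Tlr13 (0.69, unadjusted p = 0.0192) and Tlr2 (1.40, unadjusted p = 0.0471) fell under it. In that fit 0 receptors and 0 genes passed after adjustment. The receptors' median log2 fold change was -0.29, against -0.00036 over all genes, and no receptor's groups were apart, as they were for 2.43% of all genes. The asymptomatic livers were all male, and that median was -0.064 with sex as a term and -0.033 in males only. Without a sex term the receptors' values ran from -0.73 ± 0.40 for Tlr5 to 0.83 ± 0.57 for Tlr2 (adjusted p = 0.617). Asymptomatic livers 1 to 5 differed in unaligned reads (8.31%, 4.93%, 7.80%, 8.05% and 9.27%). With that share as a term Tlr2 came to 0.016 ± 1.06, Tlr5 to -0.64 ± 0.53 and the receptors' median to 0.031. limma-voom with sample quality weights called Tlr5 (-1.09, adjusted p = 0.0472) among 8.87% of all genes, and DESeq2 called none of the 10 receptors and 114 genes in all.

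AIH livers exceeded asymptomatic livers of the same genotype in 8 receptors, all but Tlr2 and Tlr5. In this comparison 29.8% of all genes were called, 19.1% as higher and 10.7% as lower. With sex as a term, under which 9.37% of all genes were called, Tlr1, Tlr7, Tlr9 and Tlr13 passed. Tlr3 (0.57, adjusted p = 0.233), Tlr4 (1.09, adjusted p = 0.0902), Tlr6 (1.08, adjusted p = 0.0783) and Tlr8 (0.99, adjusted p = 0.184) did not. With the unaligned share as a term none of the 10 passed and their median was 1.44, while 3.84% of all genes were called. The receptors' median log2 fold change was 1.88, against -0.03 over all genes. For 6 of the 10 (Tlr1, Tlr4, Tlr6, Tlr7, Tlr8 and Tlr13) every AIH library was above every asymptomatic library, as for 12.3% of all genes. The comparison shares its AIH libraries with the one against controls, so the calls are not separate evidence.

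Sex was uneven across these groups and was therefore followed within each sex. Among females (4 AIH against 2 controls) Tlr7 (1.59, adjusted p = 0.0341) and Tlr13 (2.19, adjusted p = 0.0169) passed over controls, where 5.59% of all genes did. The single AIH male against 2 control males gave a call for Tlr1 (3.12, adjusted p = 0.0259), where 3.63% of all genes passed, with AIH 4 assumed to vary like the other males. Pooling the spread over the 14 libraries, a choice made after seeing the data, changed which receptors passed. In females Tlr6 was then called too (1.37, adjusted p = 0.0285, against 0.0808 in the fit of females alone). In males Tlr7 was called (1.83, adjusted p = 0.0475, against 0.0736) in place of Tlr1 (3.09, adjusted p = 0.183). Each of the 10 differences from controls kept its sign in both sexes, but the male values rest on AIH 4 alone. Tlr3 in females, at 0.029 ± 0.34, was close to no difference. With sex as a term in the fit over all libraries, under which 17.0% of all genes were called, Tlr1, Tlr6, Tlr7, Tlr9 and Tlr13 passed. Tlr4 (0.91, adjusted p = 0.0645), Tlr5 (-0.92, adjusted p = 0.0959) and Tlr8 (1.08, adjusted p = 0.0529) did not.

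Against asymptomatic livers, all of them male, the fit of males alone rests on AIH 4 and called Tlr1 (3.15, adjusted p = 0.00489) and Tlr9 (3.62, adjusted p = 0.0334), as it did 6.42% of all genes. Tlr7 was at 1.48 (adjusted p = 0.0641), Tlr8 at 0.80 (adjusted p = 0.313) and Tlr13 at 1.05 (adjusted p = 0.178) there, and Tlr7 passed when the spread was pooled (1.42, adjusted p = 0.0431). The 3 X-linked receptors were each higher in both female controls than in both male controls, as were Tlr2, Tlr3 and Tlr6, while Tlr5 was lower in both. Of all genes tested, 18.8% were higher in both female controls and 18.0% lower. A test of whether the AIH effect differed between sexes passed for 0 of the 10 receptors and 0 of 16337 genes (smallest unadjusted p among the receptors 0.186). With 1 male in the AIH group, this says nothing about whether the sexes respond alike.

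Levels of different receptors were compared per length, as mean CPM per kb of exon. In controls Tlr5 led at 2.85 ± 0.87 (SD, n = 4), followed by Tlr2 at 2.13 ± 1.06, Tlr3 at 1.62 ± 0.29, Tlr8 at 1.25 ± 0.50, Tlr7 at 1.22 ± 0.51, Tlr4 at 1.01 ± 0.24 and Tlr13 at 0.92 ± 0.30. Tlr1 (0.36 ± 0.29), Tlr6 (0.25 ± 0.04) and Tlr9 (0.25 ± 0.07) formed the low end. Of the neighbours in that order, the step from Tlr13 to Tlr1 was larger than the SD of either gene, and the other 8 steps were not. In asymptomatic livers Tlr2 led at 3.79 ± 2.92 (SD, n = 5), with Tlr5 at 1.72 ± 0.89, and the step from Tlr8 (0.82 ± 0.19) to Tlr1 (0.29 ± 0.13) exceeded the SDs.

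In AIH livers the order changed. Tlr2 stood at 5.20 ± 3.04 CPM per kb (SD, n = 5), Tlr13 at 4.69 ± 1.63, Tlr7 at 4.56 ± 1.41, Tlr8 at 3.40 ± 2.43 and Tlr1 at 2.57 ± 1.48. Tlr4 (1.98 ± 0.89) and Tlr3 (1.96 ± 0.57) followed, then Tlr5 at 1.27 ± 0.57, Tlr9 at 1.26 ± 0.95 and Tlr6 at 0.66 ± 0.21. Tlr5 thus went from rank 1 in controls to rank 8, and Tlr13 from rank 7 to rank 2. The step from Tlr3 to Tlr5 was the neighbouring step larger than the SDs.

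**Figure D3:**
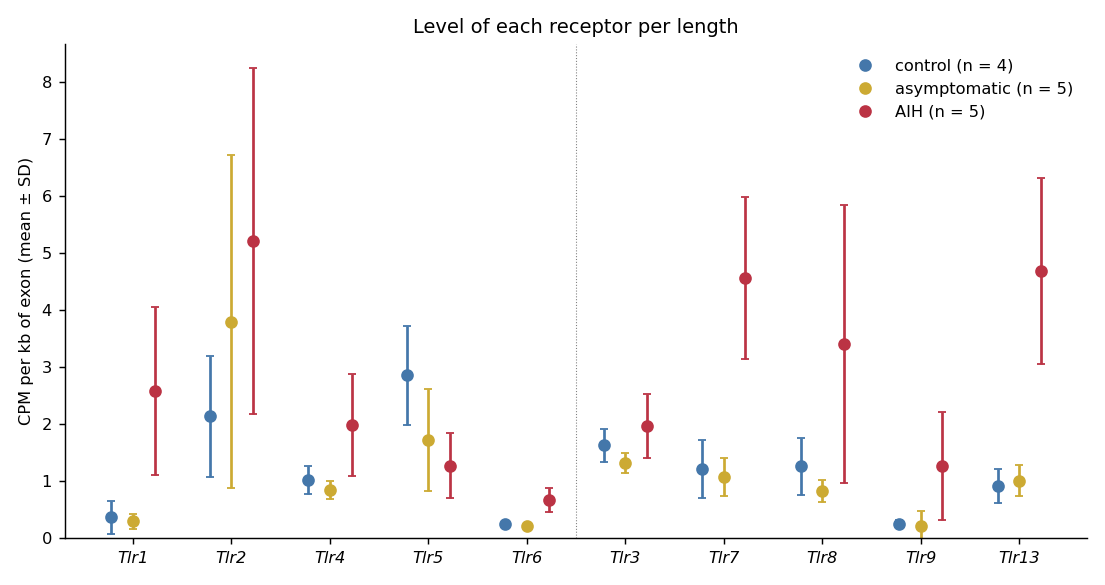
Mean level of each receptor per kb of exon with its SD in each group (control n = 4, AIH and asymptomatic n = 5), on a linear axis from 0. Of the 10 receptors, Tlr5 is highest in controls at 2.85, and Tlr2, Tlr13 and Tlr7 are highest in AIH at 5.20, 4.69 and 4.56.

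Markers of leukocytes rose with the receptors in AIH. Of 12 monocyte and macrophage markers, 11 were higher in AIH than in controls, and their summed level was 398 to 874 CPM in controls, 437 to 570 in asymptomatic livers and 1502 to 3149 in AIH livers. AIH 4 was the lowest AIH liver in this sum, as it was for Tlr6, Tlr7, Tlr8 and Tlr13, but it was the highest for Tlr5 and Tlr9. AIH 3 was the lowest for Tlr1, Tlr2, Tlr3, Tlr4 and Tlr9. Of 7 Kupffer cell markers 6 were higher (352 to 698 CPM in controls and 750 to 3417 in AIH), and of 9 neutrophil markers tested all 9 were (3.33 to 8.99 against 24.6 to 1323 CPM). Ly6g was at 0 in all controls. Of 8 B cell markers 6 were higher (4.97 to 9.11 against 29.4 to 233 CPM), as were 7 of 8 T and natural killer cell markers tested, 4 of 5 conventional dendritic markers and 2 of 3 plasmacytoid dendritic markers. These counts stand beside 15.6% of all genes higher and 6.08% lower. Markers scarce in controls, such as Ngp (0.17 CPM), could pass the filter through their AIH libraries, so such counts lean toward higher. Sinusoidal endothelial markers gave 1 higher of 9 (430 to 547 CPM in controls and 411 to 608 in AIH), stellate and matrix genes 3 of 8, bile duct markers 1 of 5 (902 CPM in AIH 3 and 78.6 to 118 in the other AIH livers), and hepatocyte markers 0 higher and 1 lower of 8. Eosinophil and mast cell markers summed to 1193 CPM in AIH 3, to 5.99 to 31.3 CPM in the other AIH livers and to at most 1.13 CPM elsewhere, and the 1 of 5 that could be tested was higher. The part of cell numbers in the receptor results was not tested.

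Each receptor was therefore also expressed relative to the 12 macrophage genes within a library, as log2 of its CPM plus 0.1 over their summed CPM. On this scale Tlr7 differed between AIH and control by 0.04 (exact permutation p = 0.889), Tlr9 by 0.06 (exact p = 0.937) and Tlr13 by 0.40 (exact p = 0.206). Tlr3 was lower by a difference of -1.64 and Tlr5 by -3.11, with every AIH liver below every control for both (exact two-sided p = 0.0159, the smallest that 5 against 4 allows). Since the macrophage sum of every AIH liver exceeded that of every control, a gene that did not rise with it is lower on this scale by construction. Over Csf1r alone Tlr3 differed by -1.30 with overlapping groups (exact p = 0.0317), Tlr5 by -2.77 (exact p = 0.0159), Tlr4 by -0.65 (exact p = 0.190) and Tlr13 by 0.74 (exact p = 0.0317), and none passed after adjustment. Over the 12 genes Tlr4 differed from controls by -0.99 (exact p = 0.0317), Tlr2 by -0.66 (exact p = 0.0476) and Tlr6 by -0.64 (exact p = 0.0635). Tlr8 differed by -0.62 (exact p = 0.175) and Tlr1 by 0.88 (exact p = 0.270), and the groups overlapped for each of these receptors. Against asymptomatic livers the ratio of Tlr3 differed by -1.47 (exact p = 0.00794, the smallest that 5 against 5 allows). After adjustment over the 30 tests (10 receptors in 3 comparisons) none passed, and the smallest adjusted p was 0.119.

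**Figure D4:**
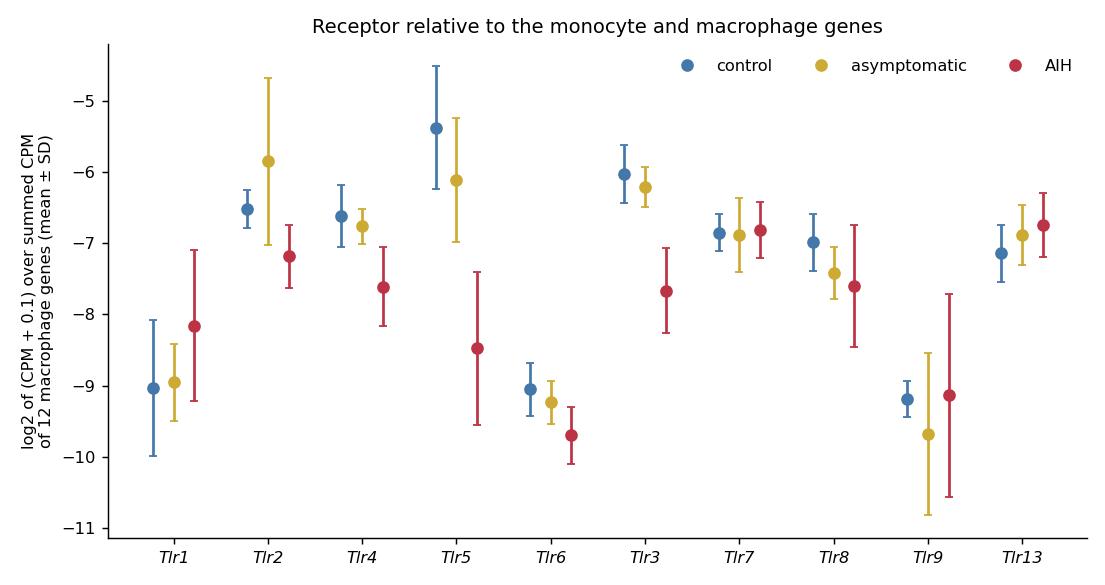
Log2 of each receptor's CPM plus 0.1 over the summed CPM of 12 monocyte and macrophage genes, as mean and SD by group. The SD bars of the 3 groups overlap for every receptor but Tlr3, Tlr4 and Tlr5. AIH sits lowest for Tlr2, Tlr3, Tlr4, Tlr5, Tlr6 and Tlr8, furthest below controls for Tlr5 and Tlr3.

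The other mouse receptors, Tlr11 and Tlr12, which sense profilin, did not pass against controls. Tlr11 was scarce, with 0.89 ± 0.39 CPM (SD, n = 5) in AIH, 0.26 ± 0.13 (n = 5) in asymptomatic and 0.43 ± 0.18 (n = 4) in control livers. It differed from controls by 1.06 ± 0.46 (adjusted p = 0.117) and passed against asymptomatic livers (1.72 ± 0.45, adjusted p = 0.0110). Tlr12 measured 20.0 ± 9.68 CPM in controls, 10.5 ± 6.76 in asymptomatic livers and 14.3 ± 5.36 in AIH livers. Its log2 fold change in AIH over controls was -0.49 ± 0.46 (adjusted p = 0.494). Per kb of exon Tlr12 stood at 6.30 ± 3.05 CPM in controls, above each of the 10 receptors, and at 4.49 ± 1.69 in AIH.

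Other genes of the pathway handle ligands for the receptors or escort them. Of all genes 15.6% were higher in AIH than in controls and 6.08% lower. Of 6 ligand-handling genes 3 were higher and none lower. They were Ly86 (log2 fold change 3.10 ± 0.34) and its partner Cd180 (2.33 ± 0.43), which form a receptor complex related to Tlr4, and Cd14 (2.63 ± 0.57), which delivers lipopolysaccharide. Ly96, the subunit with which Tlr4 binds lipopolysaccharide, stood at 0.52 ± 0.26 (adjusted p = 0.174). Of 5 trafficking genes 2 were higher, Unc93b1 (1.38 ± 0.25), which carries the nucleic acid sensors to endosomes, and Lgmn (1.67 ± 0.26), a lysosomal protease. The chaperones Hsp90b1 (0.49 ± 0.37, adjusted p = 0.385) and Cnpy3 (0.17 ± 0.20, adjusted p = 0.587) did not pass.

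Signals pass from the receptors through adaptors and kinases to transcription factors. The shares called in these lists are to be read against the 15.6% of all genes higher and 6.08% lower. Of 5 adaptors tested (of 6 listed) 1 was higher, Ticam2 (2.54 ± 0.42), which links Tlr4 to Ticam1, while Myd88 was at 0.43 ± 0.21 (adjusted p = 0.156), Tirap at -0.43 ± 0.37 (adjusted p = 0.452) and Pik3ap1 at 0.05 ± 0.20 (adjusted p = 0.892). Of 15 kinases and ubiquitin ligases none was higher and 2 were lower, Chuk (-0.72 ± 0.16), a subunit of the IkB kinase complex, and Map3k7 (-0.44 ± 0.14), a kinase upstream of it. Ikbke, at 1.04 ± 0.41 (adjusted p = 0.0840), and Ikbkg, at -0.51 ± 0.20 (adjusted p = 0.0857), did not pass. Of 7 transcription factors 5 were higher, including Irf7 (2.01 ± 0.39), Nfkb2 (1.42 ± 0.26), Irf5 (1.42 ± 0.29) and Nfkb1 (0.62 ± 0.14). Median log2 fold changes of these lists were 0.05 for adaptors, -0.21 for kinases and ligases, and 0.67 for transcription factors, against -0.01 for all genes.

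Inducible genes at the end of the pathway were mostly higher, in a comparison where 15.6% of all genes were higher and 6.08% lower. Of 10 negative regulators tested (of 11) 6 were higher, with Tnip1 at 1.04 ± 0.14, Irak3 at 2.50 ± 0.37, Tnfaip3 at 1.88 ± 0.29 and Nfkbia at 0.68 ± 0.15. These encode inhibitors of NF-kB or receptor signalling. Of 13 response genes tested (of 20) 11 were higher and none lower, with Ccl5 at 3.32 ± 0.49, Saa3 at 2.29 ± 0.49, Ccl4 at 5.17 ± 1.18 and Tnf at 2.41 ± 0.58. Their median was 2.95, against the receptors' 1.41 and -0.01 over all genes. Ccl4 (0.11 CPM) and Tnf (0.18 CPM) were scarce in controls. The filter could keep such genes through their AIH libraries, so a higher level was nearly the only outcome open to them. The count of 11 and the median lean upward for that reason. The summed level of the 20 genes was 62.8 CPM in AIH 4, within the control range of 17.5 to 79.7 and under asymptomatic 4 (111 CPM), and 421 to 1042 CPM in the other AIH livers. On average most of the AIH sum was Lcn2 (525 ± 374 CPM, SD, n = 5, against 20.9 ± 18.5 in controls, n = 4). The sum therefore says little about the other response genes in AIH 4. The interferon gene Ifnb1 had 0 counts in every library and was not detectable at this depth. Against asymptomatic livers 5 of 6 ligand-handling genes and 10 of 13 response genes were higher, and 5 of 15 kinases and ligases were lower. Of all genes 19.1% were higher there and 10.7% lower. The 1559 genes called lower became 150 with sex as a term and 18 with the unaligned share, and these lists were not recounted there. Many genes on these lists are also expressed by the leukocytes whose markers rose.

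**Figure D5:**
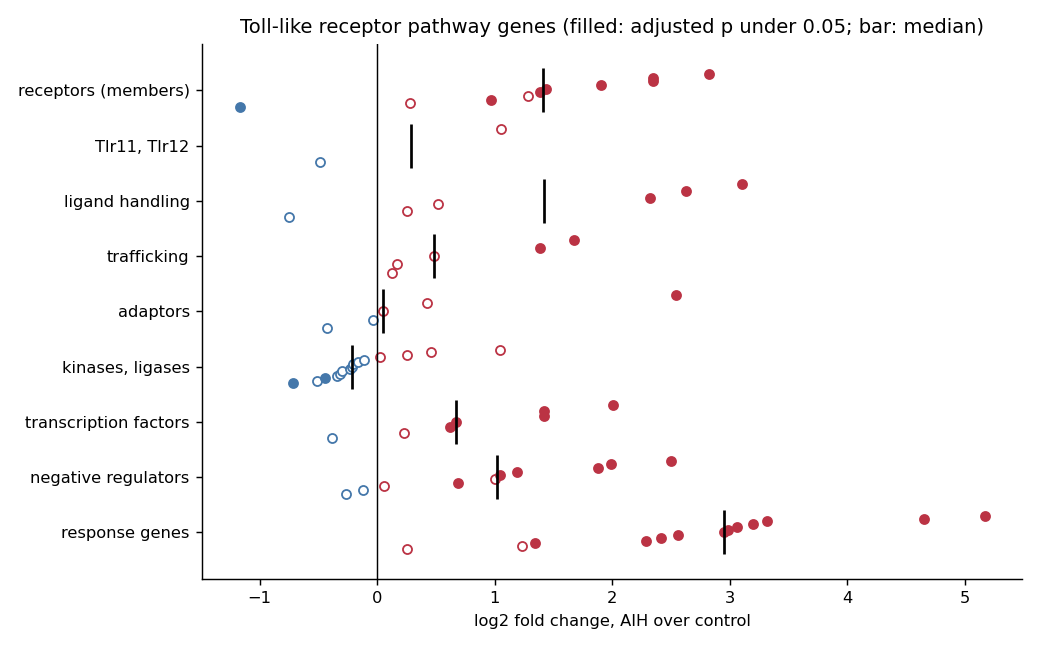
Log2 fold change of each tested gene in AIH over control, by step of the pathway, with filled points for adjusted p under 0.05 and a bar at each list's median. The bar for adaptors is at 0.05 and that for kinases and ligases at -0.21, while response genes reach a median of 2.95.

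Receptors also differed in which genes followed them across the 14 livers, given as Pearson's r of log2 CPM, followed by r after subtracting group means, as a description over libraries that share their group differences. Tlr1 was most like Bank1, a B cell scaffold (0.97, then 0.91), and Dck (0.96, then 0.89), Tlr9 most like Fnbp1 (0.96, then 0.92) and St8sia6 (0.95, then 0.87). Tlr6 was most like Stx7 (0.98, then 0.91) and Ngp, a neutrophil granule protein (0.96, then 0.82). Tlr7 was most like March1, a ubiquitin ligase of antigen-presenting cells (0.98, then 0.88), and Plcb2 (0.97, then 0.82), Tlr13 most like Me2 (0.98, then 0.89) and Plekhm2 (0.98, then 0.88). Tlr8 was most like Sema6d (0.95, then 0.84) and Siglec1, a macrophage lectin (0.92, then 0.88).

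The receptors with small or opposite differences had other companions. Tlr2 was most like Rbmxl1 (0.93, then 0.92) and Apobec1 (0.90, then 0.92), Tlr3 most like Rel, a subunit of NF-kB (0.88, then 0.85), and Parp14 (0.88, then 0.83). Tlr4 was most like Mob1a (0.93, then 0.79) and Atp8a1 (0.93, then 0.78), and Tlr5 most like Sema5b (0.94, then 0.91) and Mtm1 (0.94, then 0.90). Among the receptors themselves Tlr7 followed Tlr13 (0.94, then 0.70) and Tlr8 (0.91, then 0.80). Tlr2 and Tlr5 ran opposite to each other (-0.88, then -0.85), and did so with group differences removed. Tlr6 and Tlr9 correlated at 0.52 across all livers and at -0.72 after group means were subtracted.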

How the data were processed

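The deposited files hold raw read counts per Ensembl gene, 1 file per library, made by the authors. Named without roles, per the submitters' processing notes, are HISAT2 2.1.0 and HTSeq 0.9.0, with FastQC 0.11.5, R 4.0, edgeR and cutadapt 1.12, beside builds GRCh38 and GRCm38. The annotation release and strand setting are not given in the sources used here. The 5 summary rows were left out, among them reads not uniquely aligned (28.8% to 37.0% of reads).

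Genes were named from GENCODE positions on GRCm38 (51633 of 51912 IDs). Counts were tested with edgeR 4.0.16 (quasi-likelihood, TMM, filterByExpr, 14 libraries, 11 residual degrees of freedom, adjusted threshold 0.05) in R 4.3.3. Alternatives used DESeq2 1.42.0, limma 3.58.1, other scalings, filters, sexes and left-out libraries. Log2 CPM for likeness used a prior count of 2, and ratios used exact permutation tests. The procedure was tested on simulated data.

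Every receptor is named. Of each pathway list the up to 4 tested genes with the smallest p in AIH against control are named, and of each receptor the 2 most alike genes, leaving out gene models and antigen receptor segments. Ifnb1, Lcn2, Ly6g, Spib and Siglech were named after their values were seen. The receptors and lists were chosen with earlier results of these data known. At this depth receptors had 4 to 622 counts per library.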

Additional observations from a re-analysis of the deposited data

Results flagged for a closer look

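Within-group gaps were examined for the 10 receptors in 3 groups, 30 in all, where chance marks about 1 in 20. In 3 of them a library stood far from the rest of its group (Dixon's criterion). Tlr4 was at 19.6 CPM in AIH 5, against 6.82 to 10.3 in the other AIH livers. Tlr8 was at 27.3 CPM in AIH 5, against 5.15 to 10.8 in the others. Tlr9 was at 2.35 CPM in asymptomatic 2, against 0.260 to 0.388 in the other asymptomatic livers.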

How the results depend on the processing

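No paired analysis was possible because replicate numbers follow accession order only. Of the 240 alternative values of single receptors in AIH against control none changed direction. Of 8 receptors called there, 5 passed with sex as a term, 2 in females only, 1 in males only, 3 within females and 1 within males with the spread pooled (the pooled fits were chosen after seeing the data), and 4 to 7 without 1 library (4 without control 4, 5 without control 1 or AIH 5). Tlr1, Tlr6, Tlr7 and Tlr13 passed in all 9 fits that left out a library. Genes called went from 3174 to 839 in females only, 555 in males only, 1739 within females and 468 within males with the spread pooled (2350 to 3425 without 1 library). Against asymptomatic livers 8 receptors became 4 with sex as a term, 0 with the unaligned share as a term, 2 in males only and 3 within males with the spread pooled, and 4355 genes became 1372, 562, 980 and 914. For asymptomatic against control 0 receptors became 1 with limma-voom, and 0 genes became 114 with DESeq2, 1299 with limma-voom and 0 to 13 without 1 library (13 without asymptomatic 2). Uncalled values changed sign in asymptomatic against control: with sex as a term Tlr6 0.045, Tlr7 0.33 and Tlr8 0.087; with the unaligned share Tlr1 0.074, Tlr6 0.052, Tlr7 0.26 and Tlr9 0.047; with limma-voom Tlr1 0.12; in males Tlr7 0.39 (pooled spread 0.41) and Tlr8 0.015 (pooled). Fits without 1 library spanned 0 there for Tlr1 (-0.61 to 0.38, positive without control 3), Tlr7 (-0.32 to 0.097, positive without control 3), Tlr9 (-1.32 to 0.026, positive without control 3, 0.020, or asymptomatic 1) and Tlr13 (-0.019 without control 4 to 0.34, and -0.0014 without asymptomatic 5). In AIH against asymptomatic Tlr2 became -0.32 with sex as a term, -0.16 in males only and -0.23 with pooled spread, and Tlr5 0.21, 0.33 and 0.28. Per length of the longest transcript Tlr3 was 1.92 in controls and 1.55 in asymptomatic livers, and Tlr4 1.38 and 1.14. The macrophage ratio with an offset of 0.5 became -0.054 for Tlr7 and -0.28 for Tlr9 against controls, and -0.027 and -0.069 against asymptomatic livers; over Csf1r alone it became 0.026 for Tlr7 (asymptomatic against control) and 0.086 for Tlr8 (AIH against asymptomatic). Scaling by library totals moved the median of all genes from -0.01 to 0.14 against controls (72.0% to 89.8% of calls higher) and from -0.03 to 0.17 against asymptomatic livers (64.2% to 88.9%), with no receptor changing direction. With the unaligned share as a term 96.8% of calls there were higher, and with sex as a term 89.1%. In males the receptor called over controls was Tlr1, and with the spread pooled Tlr7. The causes were not tested.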
